A study of Rattus norvegicus with 105 samples.

Results

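The cytosolic ribosomal protein genes were followed across rat frontal cortex arrays. A gene belonged to the group when the array's annotation gave a probe set that single symbol and the symbol was Rpl or Rps with a number, Rplp0 to Rplp2 or Rpsa, without the Rps6k kinases, pseudogenes and paralogs with l endings. The rule found 42 genes among 14217 with a probe set of 1 symbol: 29 of the large subunit and 13 of the small subunit. Each gene was read from its probe set with the highest mean signal. A further 33 probe sets carried several symbols that included a ribosomal protein gene, and these were left unnamed.

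The arrays came from 3 experiments on frontal cortex RNA, in 11 groups and 105 arrays. In the lesion experiment, 12 arrays held cortex of rats with a lesioned ventral hippocampus, a region that sends axons to this cortex, and 10 that of sham rats. In the TTX experiment, 11 arrays came from rats given tetrodotoxin, a blocker of voltage-gated sodium channels, in the ventral hippocampus, and 9 from sham rats. In the neuroleptic experiment, rats had been given the antipsychotics clozapine or haloperidol chronically: 9 arrays came from vehicle rats, 10, 9 and 8 from low, medium and high clozapine, and 9 from each of low, medium and high haloperidol. The labels gave neither doses in units nor strain, age or sex, and did not say whether each array was a separate animal, so the p-values measure the spread between these arrays, part of which may be technical. All 10 neuron markers looked for (among them Snap25, Rbfox3 and Slc17a7) passed the brightness filter in each experiment. As these were arrays of whole tissue, fewer cells of a type and less RNA per cell cannot be told apart.

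Ribosomal proteins join ribosomal RNA in the nucleolus to form the small and the large subunit, which translate every cytosolic mRNA. Their mRNAs are abundant in most cells, including neurons, and are a textbook case of shared control at the level of translation: many begin with a C followed by an unbroken run of pyrimidines, the 5′ terminal oligopyrimidine tract, through which mTOR signalling governs how many ribosomes load on them. An array measures the amount of an mRNA, not its translation.

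The start sites of several members are shown because this tract is the sequence feature the family is best known for. Promoter windows from RefSeq (build GRCr8) matched 37 of the 42 members. Each line gives 30 bases, 15 before and 15 from the annotated start, 5′ to 3′ on the gene's strand, and the capitals mark the pyrimidines that run unbroken from the annotated start.
Rpl19 at chr10:83519049-83519078, plus strand: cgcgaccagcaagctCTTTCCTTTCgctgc
Rpl22 at chr5:168117946-168117975, plus strand: gtagtgcgcccccctCCCTTTCTgcctcct
Rpl35a at chr11:81235007-81235036, minus strand: gcgggtcttgccttcCTCTTTCCgccatct
Rpl39 at chrX:121195882-121195911, minus strand: tcttctaatcgcgttCTTCCggcctgtcct
Rplp0 at chr12:46718376-46718405, minus strand: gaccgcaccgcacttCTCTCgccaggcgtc
Rps15 at chr7:10068101-10068130, minus strand: cgctgacaccgcttcCTTTTCCCagcagcc
Rps6 at chr5:106420526-106420555, minus strand: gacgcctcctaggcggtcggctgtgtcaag

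A C followed by 4 bases that are each C or T, read on the gene's own strand, stood at the annotated start of 12 of the 37 members (32.4%) and of 881 of all 33469 windows in the table (2.63%). Within 10 bases of the start it was found in 26 members (70.3%), against 28.9% of all windows. Rpl19 carried a run of 10 pyrimidines and Rps6 none at its annotated start. A match describes these letters alone, and an annotated start can differ from the one used in cortex.

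Intensities were compared as log2 values after quantile normalisation within an experiment. The brightest 60% of probe sets, 18625 in each experiment, were tested with limma, with an adjusted p under 0.05 as the threshold for a call. Of the 42 members, 39 were tested in each experiment. Rpl28, Rpl30 and Rps13 were too dim: over the 11 groups their mean log2 intensities ran between 8.42 and 8.75 for Rpl28, between 6.22 and 7.30 for Rpl30 and between 7.47 and 8.26 for Rps13. Rpl39 had group means between 9.91 and 10.75, and the other 38 tested members had group means between 14.35 and 16.82. A probe set's brightness does not measure how abundant its mRNA is relative to another gene's, so levels were not compared between genes.

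No member was called in any comparison of groups. The family's median differences were a few hundredths of a log2 unit or less. Wherever groups of arrays were compared, they overlapped for all 39 members. Overlap was not counted over all probe sets, so this count says nothing particular about the family. The median SE of a member's log2 difference was 0.054 in the lesion experiment, against 0.085 over all probe sets tested, and 0.046 against 0.084 in the TTX experiment. Members varied little from array to array within a group, with a median residual SD of 0.12 in the lesion experiment, 0.085 in the TTX experiment and 0.12 in the neuroleptic experiment, where all probe sets had medians of 0.20, 0.19 and 0.22. These SEs and SDs were not set against probe sets of like brightness, so they do not show steadiness as a trait of the family.

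**Figure D1:**
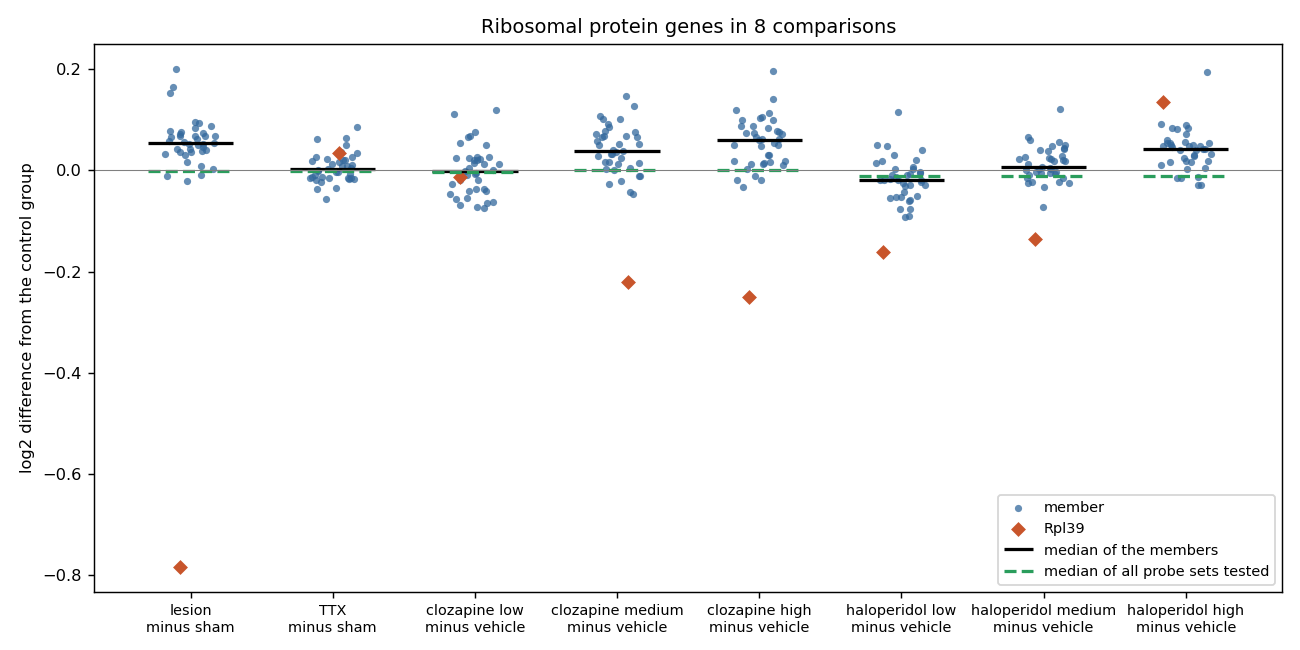
Log2 difference of each of the 39 tested ribosomal protein genes (points, with Rpl39 as diamonds) from sham or vehicle in 8 comparisons, with the members' median as a black line and the median of all 18625 probe sets as a dashed line. Apart from Rpl39 the members lie close together near 0, with medians of 0.054 for the lesion, 0.0022 for TTX and 0.061 for high clozapine, while Rpl39 stands at -0.78 for the lesion.

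After the ventral hippocampal lesion, 35 of the 39 members had a higher mean in lesion than in sham cortex, and their median difference was 0.054 log2 (3.78%), while 49.5% of all probe sets were higher and their median was -0.0012. None of the 39 passed the threshold, where 0% of all probe sets did. At an unadjusted p under 0.05 there were 4 members higher and 1 lower, or 12.8% of the members, against 7.81% of all probe sets. The 27 tested members of the large subunit had a median difference of 0.053 and the 12 of the small subunit 0.059.

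Rps3, a small subunit protein at the entry of the mRNA channel, had log2 levels of 15.29, 15.49 and 16.01 (lowest, median and highest) on the 12 lesion arrays, against 15.13, 15.35 and 15.59 on the 10 sham arrays. Its difference of 0.20 ± 0.08 (SE) was the largest positive one of the family, and 11 of 12 lesion arrays lay above the sham mean, but the groups overlapped and the adjusted p from limma was 0.588. Rpl22, a large subunit protein without which mice remain viable, had 14.49, 14.60 and 15.18 on lesion arrays, against 14.37, 14.51 and 14.58 on sham arrays. Its difference was 0.16 ± 0.065 (SE), with an adjusted p of 0.596 from limma. Rps24 and Rpl6, picked out after their values were seen because they complete the 4 higher members, differed by 0.15 ± 0.06 and 0.077 ± 0.034 (SE). Rpl6 had the steadiest readings of the family in this experiment: its lesion arrays lay between 15.52 and 15.71 and its sham arrays between 15.46 and 15.54, with all 12 lesion arrays above the sham mean.

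The size of this family shift depended on a single array. The mean of the 39 members on each array, each gene centred on its mean over the experiment, was 0.33 on lesion replicate 7, and the next lesion array stood at 0.054. This array was the highest of its 12 for 35 of the 39 members, and it was also one of 4 arrays whose mean correlation with the other arrays of their experiment was low (0.954, where the median array had 0.977). The lesion and sham arrays overlapped in this family mean, with medians of -0.016 in lesion and -0.025 in sham. Without lesion replicate 7 the members' median difference was 0.024, with 28 of 39 higher, and without all 4 arrays of low correlation it was 0.029, with 30 of 39 higher. Without replicate 7 there were also 5 members at an unadjusted p under 0.05, where the share of all probe sets was 9.28%.

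**Figure D2:**
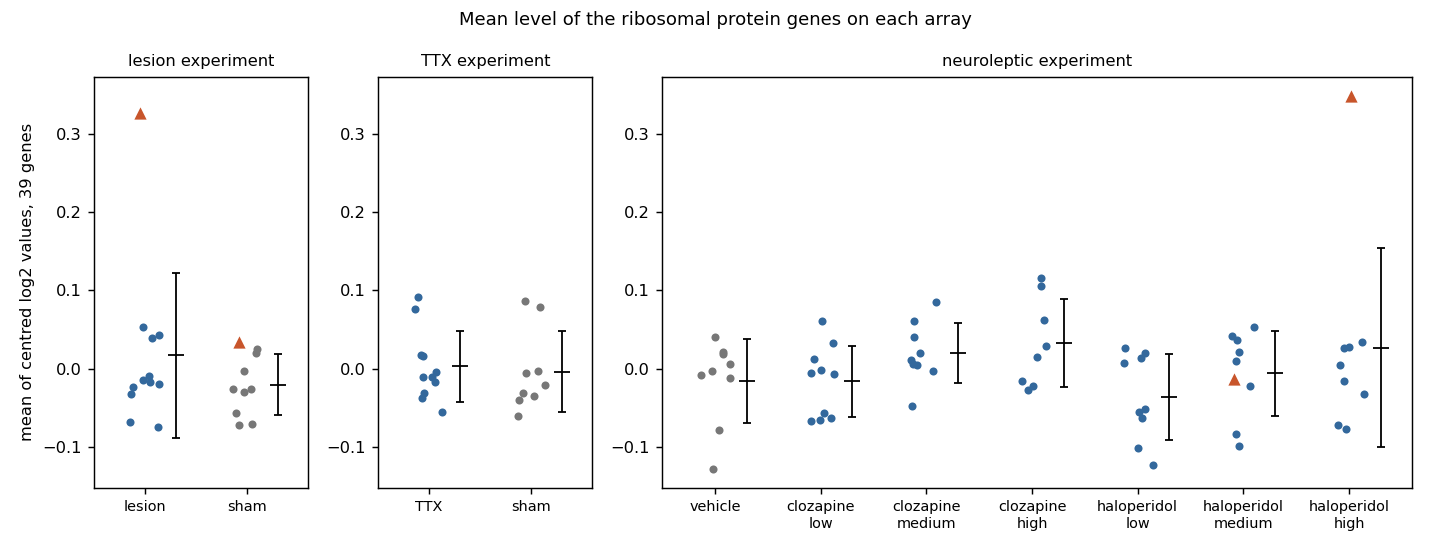
Mean of the centred log2 values of the 39 tested members on each array (points; shams and vehicle in grey, the 4 arrays of low mean correlation as triangles), with each group's mean and SD as bars. Lesion replicate 7 at 0.33 and high haloperidol replicate 8 at 0.35 stand far above all the other arrays, which lie between -0.13 and 0.12.

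Lesion replicate 7 also had the highest reading of its group in a measure of RNA integrity. The log2 difference between 3′ and 5′ control probe sets of GAPDH and beta-actin, which grows as transcripts are shortened from the 5′ end, was 0.74 on this array, the highest of its group, whose lowest and median values were 0.27 and 0.52, against 0.48, 0.54 and 0.70 (lowest, median and highest) in sham. Other arrays came near this reading: lesion replicate 1 had 0.68 with a family mean of 0.054, and sham replicate 9 had 0.70 with 0.034. The measure was then fitted as a slope beside the groups of the lesion experiment. It was positively related to the level of 36 of 39 members, where 49.5% of all probe sets had positive slopes. It called 2 members (5.13%), against 1.42% of all probe sets: Rpl21, with a slope of 1.75 ± 0.39 (SE) log2 per log2 unit, and Rpl35a, with 1.11 ± 0.26. Without lesion replicate 7 both calls were lost (0 of 39), in a fit whose share of all probe sets is not given here. With values as deposited there were 11 (28.2%, against 1.91% of all probe sets). The part of RNA integrity in the lesion shift was not tested beyond this. With the measure as a covariate the family's median difference was 0.070. In the TTX experiment 31 of 39 members had positive slopes on the measure (48.4% of all probe sets). In the neuroleptic experiment 18 of 39 had (45.3%).

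In the lesion experiment the sample numbers in the titles ran unbroken from 36 to 57. They were cut for the analysis into 2 consecutive blocks, 36 to 46 and 47 to 57, and each held lesion and sham arrays. The labels mark no blocks, so these need not be processing batches. The family's median difference was 0.020 in the first block (6 lesion and 5 sham arrays), with 25 of 39 members higher, and 0.070 in the second (6 and 5 arrays), with 37 of 39 higher. Rps3 differed by 0.079 and 0.32 in these blocks. Markers of cell types were read beside it: 5 of the 6 tested microglia markers were higher in lesion cortex (median 0.060), 0 of 7 oligodendrocyte markers (median -0.095), 1 of 8 astrocyte markers (median -0.026) and 3 of 10 neuron markers (median -0.027), and none of these genes was called. The summed intensity of the oligodendrocyte markers ran from 131286 to 229884 on lesion arrays, against 164976 to 216030 on sham arrays; the part of cell composition in the family's shift was not tested.

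Rpl39 went the other way. This gene encodes one of the smallest ribosomal proteins, at the wall of the exit tunnel through which the new peptide leaves the large subunit. Its log2 level was 9.05, 10.09 and 10.76 (lowest, median and highest) on the 12 lesion arrays, against 10.26, 10.57 and 11.22 on the 10 sham arrays. The lesion arrays were spread over a wide range whose lower part sham arrays did not reach: 8 of 12 lesion arrays lay below every sham array and 4 of 10 sham arrays above every lesion array, but the groups overlapped. The difference was -0.78 ± 0.20 (SE; 0.58 times the sham level), the smallest unadjusted p of the family, with an adjusted p of 0.502 from limma. It was -0.65 in the first block and -0.92 in the second, and -0.76 without lesion replicate 7. Rpl39 was read from a single probe set, far dimmer than those of the other tested members. Whether this probe set follows the amount of the mRNA was not tested.

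**Figure D3:**
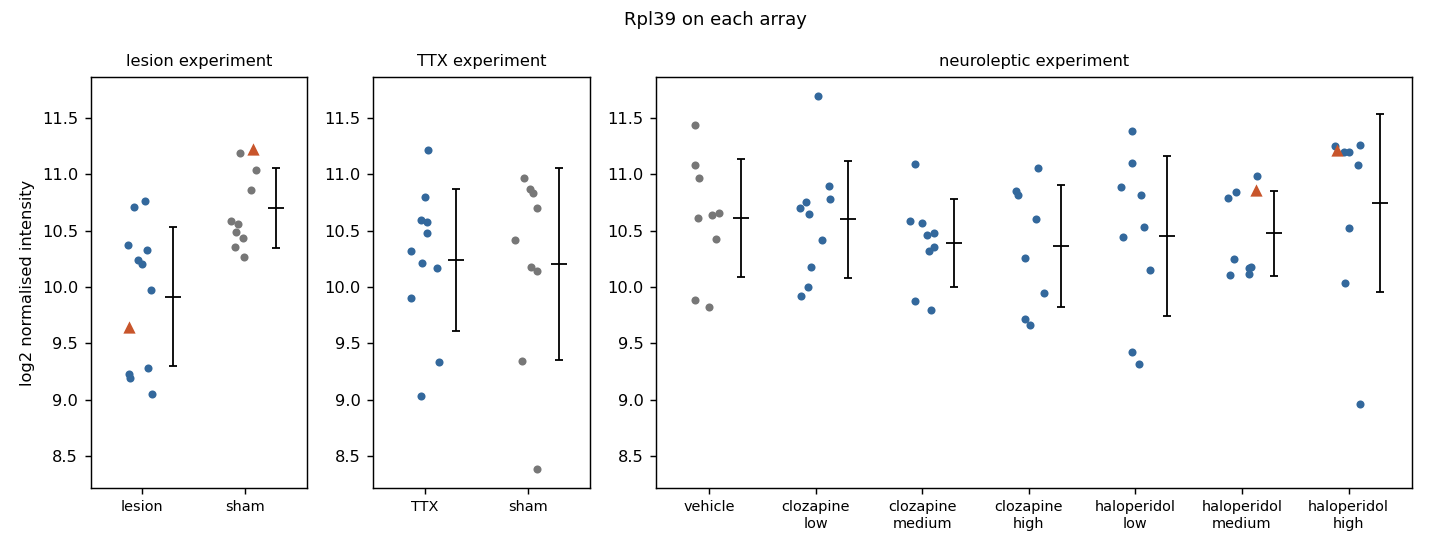
Log2 normalised intensity of Rpl39 on each array in the 11 groups (points; shams and vehicle in grey, the 4 arrays of low mean correlation as triangles), with each group's mean and SD as bars. The lesion arrays reach down to 9.05 while the sham arrays of that experiment start at 10.26, and in the TTX experiment the sham arrays reach down to 8.38.

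Rpl39 varied widely from array to array in all 3 experiments. Its residual SD within groups was 0.51 in the lesion experiment, 0.73 in the TTX experiment and 0.57 in the neuroleptic experiment, where the next most variable member in each, Rpl21, had 0.24, 0.25 and 0.24. In the TTX experiment Rpl39 had 9.04, 10.32 and 11.21 on TTX arrays, against 8.38, 10.42 and 10.96 on sham arrays, and its difference was 0.035. On Rpl39 the effect of the lesion minus that of TTX was -0.81 ± 0.38 (SE), with an adjusted p of 0.775 from limma. Its level also differed by 0.87 log2 between the 2 title-number blocks of the TTX experiment (adjusted p = 0.0265 from limma), by up to 0.80 between the 4 blocks of the neuroleptic experiment (adjusted p = 0.00181). In the neuroleptic experiment it also rose with the 3′ minus 5′ measure, by 4.63 ± 1.0 (SE) log2 per unit (adjusted p = 0.000907). In the lesion experiment neither was called for Rpl39: its blocks differed by 0.17 (adjusted p = 0.728 from limma) and its slope on the measure was 0.012 ± 1.1 (SE; adjusted p = 0.997). The lesion difference was -0.78 both with the block as a term (adjusted p = 0.408 from limma) and with the measure as a covariate (adjusted p = 0.419).

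Tetrodotoxin in the ventral hippocampus left the family centred on 0. Of 39 members 21 were higher in TTX than in sham cortex, and the median difference was 0.0022, beside -0.00069 over all probe sets. No member passed the threshold, where 0% of all probe sets did, and none had an unadjusted p under 0.05, where 4.63% of all probe sets had one. The 95% confidence intervals of the 38 members other than Rpl39 all lay between -0.20 and 0.29. With each array centred on its median in place of quantile normalisation, 33 of 39 were higher and the median was 0.018.

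Rpsa, a small subunit protein that is also known as the laminin receptor, had the smallest p: its log2 levels were 14.89, 15.03 and 15.25 on TTX arrays, against 14.90, 14.96 and 15.09 on sham arrays. Its difference was 0.063 ± 0.047 (SE), with 8 of 11 TTX arrays above the sham mean. Rps28 had the largest positive difference (0.086 ± 0.098, SE). Rps6, the small subunit protein phosphorylated by the S6 kinases downstream of mTOR, had the largest negative one (-0.056 ± 0.071, SE), with 15.66, 15.84 and 16.12 on TTX arrays, against 15.71, 15.96 and 16.09 on sham arrays. Within the title-number blocks, 126 to 135 and 136 to 145, the family's median difference was 0.012 (5 TTX and 5 sham arrays) and -0.00029 (6 and 4 arrays).

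Set against each other in a joint fit, the lesion effect exceeded the TTX effect for 33 of 39 members, with a median of 0.050, beside 0.00058 over all probe sets. None of these differences between effects passed the threshold (0% of all probe sets did), and 2 members, Rpl39 and Rps24, had an unadjusted p under 0.05 (5.13%, against 6.34% of all probe sets). Rps24 differed by 0.16 ± 0.07 (SE) and Rps3 by 0.22 ± 0.11. Without lesion replicate 7 the median was 0.024, with 27 of 39 members higher, and with values as deposited it was 0.020, with 26 of 39 higher.

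Under clozapine most members were somewhat higher than in vehicle at the medium and high dose, all short of the threshold. The family's median difference from vehicle was -0.00029 at the low dose (19 of 39 members higher, or 26 of 39 with a median of 0.026 with each array centred on its median), 0.039 at the medium dose (32 of 39) and 0.061, or 4.31%, at the high dose (34 of 39), beside medians of -0.0031, 0.0019 and 0.00035 over all probe sets. With median centring the medians at the medium and high dose were 0.13 and 0.11. The 3 comparisons share their 9 vehicle arrays. No member passed the threshold at any dose, where 0%, 0.0215% and 0.00537% of all probe sets did at the low, medium and high dose. At an unadjusted p under 0.05 there were 0, 1 and 1 members, where the shares of all probe sets were 2.72%, 4.06% and 3.87%. With median centring these counts were 0, 6 and 3 (2.30%, 4.21% and 3.75% of all probe sets), and with values as deposited 0, 4 and 6 (2.66%, 4.16% and 4.01%).

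The title numbers of the neuroleptic arrays, also an unbroken run, were cut for the analysis into 4 consecutive blocks that the labels do not mark. The clozapine differences varied between these blocks. At the medium dose the family's median difference from vehicle was -0.018, 0.13 and 0.012 in the 3 blocks that held both groups, with 18, 32 and 22 of 39 members higher. The second block held vehicle replicates 3 and 4, whose means over the 39 members, -0.13 and -0.079, were the lowest of the 9 vehicle arrays. At the high dose the medians were 0.044, 0.11, 0.067 and -0.010 in the 4 blocks, each from 1 to 3 high clozapine and 2 to 3 vehicle arrays. With the block as a term the medians were -0.010, 0.028 and 0.055 at the low, medium and high dose, with 16, 32 and 34 of 39 members higher.

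The low and high clozapine groups share no array, and their direct comparison was added after the data were seen. Of 39 members 37 were higher at the high than at the low dose, all but Rpl21 and Rpl39, with a median of 0.052, beside 0.00074 over all probe sets. None passed the threshold (0% of all probe sets did), and 2 had an unadjusted p under 0.05 (5.13%, against 3.24% of all probe sets). These were Rpl34, at 0.12 ± 0.04 (SE), and Rpl18, at 0.13 ± 0.06. The median was 0.085, 0.037, 0.069 and -0.0048 in the 4 title-number blocks, the last with only 1 high and 2 low arrays. Blood markers were read beside this comparison: Hbb, a haemoglobin chain, was higher at the high than at the low dose by 1.03 ± 0.24 (SE; adjusted p = 0.211 from limma) and Alas2, the erythroid enzyme of haem synthesis, by 1.37 ± 0.29 (adjusted p = 0.0686). Their summed intensity had a median of 65913 (38319.9 to 97027) on high clozapine arrays, against 39826 (7877 to 67453) on low clozapine arrays, and their part in the difference was not tested. Among the other lists, 2 of 10 neuron (median -0.064), 4 of 8 astrocyte (0.0035), 6 of 7 oligodendrocyte (0.023) and 4 of 6 microglia markers (0.061) were higher. So were 5 of 8 endothelial and mural (0.035), 2 of 5 meningeal and choroid plexus (-0.16) and 1 of 6 striatal neuron markers (-0.12). The mean of the 39 members per array ran from -0.13 to 0.040 on vehicle arrays, from -0.067 to 0.061 on low, from -0.047 to 0.085 on medium and from -0.027 to 0.12 on high clozapine arrays, so the groups overlapped throughout.

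The mean of the 27 clozapine arrays against vehicle had 29 of 39 members higher, a median of 0.026, and 0 calls (0% of all probe sets). The median was 0.088 with each array centred on its median (37 of 39 higher) and 0.068 with values as deposited (34 of 39), and within the 4 blocks it was -0.0093, 0.13, 0.0055 and -0.037. Rps9, a small subunit protein near the decoding region, was the single member with an unadjusted p under 0.05 (2.56%, against 3.81% of all probe sets). Its log2 levels were 14.82, 15.00 and 15.13 (lowest, median and highest) in vehicle, 14.87, 15.08 and 15.21 at low, 14.95, 15.14 and 15.28 at medium and 14.89, 15.08 and 15.32 at high clozapine. The dose groups lay somewhat above vehicle with wide overlap, and 22 of 27 clozapine arrays exceeded the vehicle mean. The difference of the clozapine mean from vehicle was 0.12 ± 0.05 (SE), with an adjusted p of 0.977 from limma. Within blocks it was 0.14, 0.30, 0.090 and -0.12. The haloperidol mean, set against the same vehicle arrays, differed in Rps9 by 0.079, 0.22, 0.074 and -0.022 in these blocks.

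Other members named by their small p were as modest. Rpl34, of the large subunit, had 15.41, 15.45 and 15.64 on the 8 high clozapine arrays, against 15.35, 15.41 and 15.45 on vehicle arrays; all 8 lay above the vehicle mean, and the difference was 0.084 ± 0.038 (SE) with an adjusted p of 0.987 from limma. Rps28, of the small subunit, had the largest positive difference at the high dose, 0.20 ± 0.10 (SE), and at the low dose, 0.12 ± 0.10. Rpl4, a large subunit protein that lines the exit tunnel, exceeded the vehicle mean on 24 of 27 clozapine arrays, with a difference of 0.079 ± 0.046 (SE). Rpl41 and Rpl27a differed by 0.11 ± 0.06 and 0.091 ± 0.058 at the medium dose. Rpl39 again had the largest negative difference at the medium and high dose, -0.22 ± 0.26 and -0.25 ± 0.27.

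The blood markers were also read for high clozapine against vehicle. Both had higher means than in vehicle, Hbb by 0.71 ± 0.25 (SE) and Alas2 by 1.03 ± 0.30, with neither called by limma (adjusted p = 0.987 for each). Their summed intensity on vehicle arrays ran from 32704 to 48919.7, with a median of 38989. Their part in the family's shift was not tested. Among the other lists, 4 of 10 neuron (median -0.025), 2 of 8 astrocyte (-0.033), 5 of 7 oligodendrocyte (0.015) and 3 of 6 microglia markers (-0.0077) were higher. So were 5 of 8 endothelial and mural (0.097), 0 of 5 meningeal and choroid plexus (-0.073) and 5 of 6 striatal neuron markers (0.023).

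Under haloperidol most members were lower than in vehicle at the low dose and higher at the high dose, all short of the threshold. The family's median difference from vehicle was -0.019 at the low dose (11 of 39 members higher), 0.0076 at the medium dose (24 of 39) and 0.043 at the high dose (34 of 39), beside -0.011, -0.012 and -0.011 over all probe sets. All probe sets thus leaned lower too, with 45.1%, 44.5% and 45.7% higher at the 3 doses. The low-dose median of the family lay close to that background. No member passed the threshold at any dose, where 0%, 0.00537% and 0.0268% of all probe sets did, and no member had an unadjusted p under 0.05, where 4.25%, 4.69% and 7.75% of all probe sets had one. For the mean of the 27 haloperidol arrays 23 members were higher, the median was 0.0049, and 0 members passed either threshold, against 0.0161% (adjusted) and 6.73% (unadjusted) of all probe sets. Within title-number blocks the medians did not keep 1 sign: they were -0.11, 0.17 and -0.063 at the low dose and -0.066, 0.16 and 0.052 at the high dose in the first, the second and the last block, and -0.082, 0.14, 0.037 and -0.012 at the medium dose in the 4 blocks. With the block as a term the medians were -0.0091, 0.017 and 0.037 at the low, medium and high dose, with 17, 25 and 36 of 39 members higher.

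The shift at high haloperidol rested on a single array. Replicate 8 of that group was the highest of the 9 for 35 of 39 members, with a family mean of 0.35 where the next array had 0.035. It too had a low mean correlation with the other arrays (0.950, where the median array had 0.973) and the highest 3′ minus 5′ measure of its group (0.68; the group's lowest and median were 0.53 and 0.58, against 0.43, 0.49 and 0.62 as lowest, median and highest in vehicle). Replicate 7 of the same group had nearly the same measure, 0.681, with a family mean of 0.028. Without replicate 8 the median difference from vehicle was 0.0031, with 22 of 39 members higher, and with replicate 8 but with each array centred on its median it was 0.019, with 30 higher. In the direct comparison of high with low haloperidol, added after the data were seen, 34 of 39 members were higher, the median was 0.054 and 7 members had an unadjusted p under 0.05 (17.9%, against 5.52% of all probe sets), none of them called (0% of all probe sets). Without replicate 8 the median was 0.0099, 24 of 39 members were higher and the 7 fell to 0, against 4.07% of all probe sets.

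Rpl21, of the large subunit, had the largest positive difference at the high dose: its log2 levels were 14.59, 14.90 and 15.32 on high haloperidol arrays, against 14.37, 14.77 and 14.92 on vehicle arrays, and the difference was 0.19 ± 0.11 (SE; adjusted p = 0.721 from limma). Rps15, a small subunit protein that reaches the decoding site, had 15.05, 15.28 and 15.72 on high haloperidol arrays, against 15.06, 15.20 and 15.30 on vehicle arrays, where 15.72 was replicate 8. At the low dose Rpl24, whose protein bridges the subunits, was -0.090 ± 0.058 (SE) from vehicle, with 8 of 9 arrays below the vehicle mean, Rps3 was at -0.093 ± 0.070 and Rpl14 at -0.077 ± 0.059. At the medium dose Rps24 was at -0.071 ± 0.053 and Rps28 at 0.12 ± 0.10. Rpl5 and Rpl11, which carry the smallest ribosomal RNA of the large subunit and can bind the p53 regulator Mdm2, differed from vehicle by 0.057 and 0.019 at the high dose, and Rplp0, the base of the stalk that recruits elongation factors, by -0.013.

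**Figure D4:**
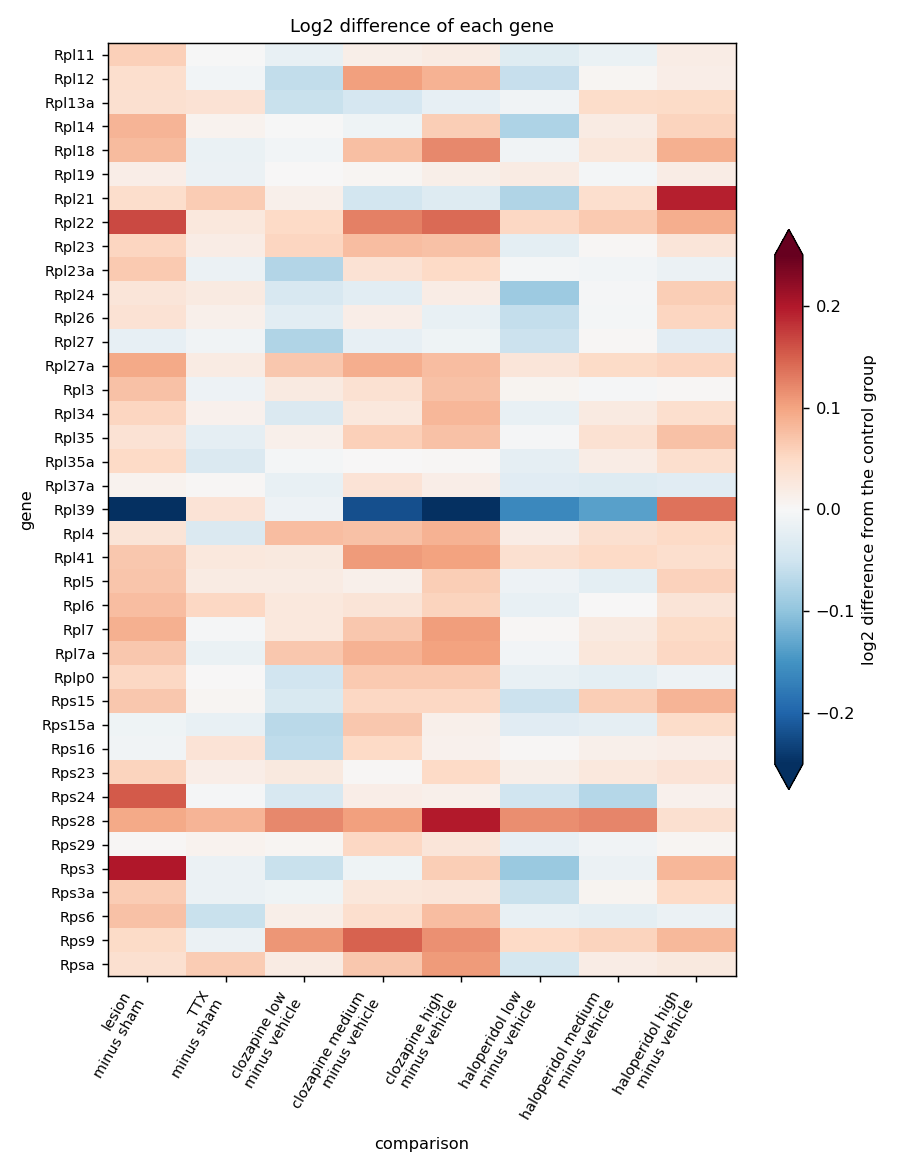
Log2 difference of each tested member (rows) from sham or vehicle in 8 comparisons (columns), with colours limited to 0.25 either way. The lesion, high clozapine and high haloperidol columns are mostly pale red, with 35, 34 and 34 of 39 members higher, low haloperidol is mostly pale blue with 11 of 39 higher, and the row of Rpl39 departs from the others.

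Members were called between blocks of title numbers though not between treatments. The neuroleptic title numbers were cut into 4 blocks: 2 to 17, 18 to 33, 34 to 49 and 50 to 64. Block differences were called there for 27 of 39 members (69.2%), against 64.9% of all probe sets. Rpl23a, Rpl21 and Rps28 had the smallest p, with block means up to 0.29, 0.43 and 0.40 log2 apart. In the TTX experiment they were called for 6 members (15.4%), against 12.9% of all probe sets: Rpl21 (0.42 log2), Rpl12 (0.18), Rps6 (0.21), Rpl39, Rpl24 (0.17) and Rpl7a (0.13). In the lesion experiment 0 members were called, against 0.424% of all probe sets. These shares were near the background in the neuroleptic and TTX experiments. In the TTX experiment the 6 became 25 of 39 with each array centred on its median (64.1%, against 28.3% of all probe sets), 3 of 42 without the filter (7.14%, against 4.33%) and 2 of 39 with the 3′ minus 5′ measure as a covariate (5.13%, against 5.22%). Median centring gave 34 members in the neuroleptic experiment (87.2%, against 70.3% of all probe sets).

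The slope on the 3′ minus 5′ measure was called for 9 members in the neuroleptic experiment (23.1%, against 25.4% of all probe sets) and for 0 in the TTX experiment (0% of all probe sets). Of the 9, Rpl39, Rpl24 (0.97 ± 0.23, SE), Rpl21 (1.61 ± 0.45), Rpl35a (0.76 ± 0.22), Rpl13a, Rpl5 and Rpl26 had positive slopes. Rps6 (-0.75 ± 0.26) and Rps28 (-1.16 ± 0.43) had negative ones. Rpl21 and Rpl35a were called in both the lesion and the neuroleptic experiment. Called or not, 18 of 39 members had positive slopes in the neuroleptic experiment, with a median of -0.024. Over all probe sets 45.3% were positive, with a median of -0.11. The 9 became 17 with each array centred on its median (43.6%, against 36.1% of all probe sets), 19 with array weights (48.7%, against 36.9%), 4 with values as deposited (10.3%, against 27.4%) and 4 with the block as a term (10.3%, against 5.95%).

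Within groups most pairs of members moved in the same direction from array to array. The median correlation between the residuals of 2 members, over 741 pairs, was 0.48 in the lesion experiment (22 arrays), 0.29 in the TTX experiment (20 arrays) and 0.35 in the neuroleptic experiment (63 arrays), where the median over all pairs of probe sets was between -0.00040 and 0.0010. Positive pairs made up 91.5%, 78.7% and 84.5%. These points share array, brightness range and normalisation, and the values are a description. Pairs of like brightness outside the family were not compared, so the values do not show joint movement as a trait of the family. Without the arrays of low mean correlation the medians were 0.17 in the lesion experiment and 0.26 in the neuroleptic experiment. They were 0.50, 0.33 and 0.44 with the block as a term, and 0.74, 0.74 and 0.71 with each array centred on its median in place of quantile normalisation. Rpl22 and Rps24 moved most closely with the rest in the lesion experiment, with mean correlations of 0.64 and 0.62. Rpl39 had mean correlations of -0.061, -0.011 and -0.050 in the lesion, TTX and neuroleptic experiments. The other members below 0 were Rps6 in the lesion experiment (-0.085), Rpl6 and Rpl21 in the TTX experiment (-0.046 and -0.022) and Rpl21 in the neuroleptic experiment (-0.048).

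Members with and without the start tract were set side by side. For the 11 tested members with a C and 4 pyrimidines at the annotated start the median was 0.052 in lesion over sham cortex, 0.0022 in TTX over sham cortex, and 0.051 and 0.049 at high clozapine and high haloperidol over vehicle. For the 24 tested members with a window but without it the medians were 0.057, 0.014, 0.067 and 0.044. These 2 groups of genes were not tested against each other.

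Genes with several probe sets did not always read alike. Rpl3, Rpl7 and Rpsa had the widest ranges. The dimmer Rpl3 probe set, which carries the maker's mark for possible cross-hybridisation, differed by -0.17 ± 0.11 (SE) for the lesion, against 0.074 ± 0.040 for the bright one. The dimmer Rpl7 probe set differed by -0.16 ± 0.15 for TTX and by 0.17, 0.21 and 0.18 at low, medium and high haloperidol, where the bright one was at -0.0027 for TTX and at 0.0031, 0.023 and 0.048. The other 2 Rpsa probe sets differed by 0.19 ± 0.11 and 0.10 ± 0.083 for TTX, beside 0.063 ± 0.047 for the bright one. At high clozapine the same 3 differed from vehicle by -0.16 ± 0.16, 0.17 ± 0.10 and 0.11 ± 0.07. The dimmer Rps24 probe set differed by -0.017 ± 0.11 for the lesion, against 0.15 ± 0.06 for the bright one. For the lesion effect minus the TTX effect these 2 stood at 0.026 ± 0.15 and 0.16 ± 0.07. None of these differences was called. Ribosomal protein genes have many processed pseudogenes, and probe sets cannot tell the mRNA from a transcribed copy of near-identical sequence.

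The rest of the translation machinery was followed through lists of genes, and no gene of any list was called in any comparison. Rack1, a scaffold protein on the small subunit that falls outside the naming rule, differed by -0.019 ± 0.058 (SE) for the lesion, 0.033 ± 0.046 for TTX and 0.13 ± 0.07 for high clozapine. The paralog Rpl7l1 differed by -0.012 for the lesion, -0.0061 for TTX and 0.033 for high clozapine. Of 11 elongation factors and related genes, 8 were higher for the lesion (median 0.039), 6 for TTX (0.0041), 9 for high clozapine (0.058) and 5 for high haloperidol (-0.011). These 11 were listed as carriers of start tracts, but their start sites were not read here. Of 22 initiation factors, 13, 10, 9 and 10 were higher in the same 4 comparisons, with medians of 0.022, -0.0073, -0.013 and -0.020. Eif3m, a subunit of initiation factor complex eIF3, had the smallest p of that list for the lesion (0.15 ± 0.055, SE).

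Of 36 tested genes of ribosome biogenesis, 24 were higher for the lesion (median 0.045), 19 for TTX (0.0056), 21 for high clozapine (0.018) and 11 for high haloperidol (-0.018). Tsr1, which helps mature the small subunit, had the smallest p for the lesion (0.17 ± 0.06, SE) and Nop2, a ribosomal RNA methyltransferase, for TTX (0.19 ± 0.06). Of 18 tested genes of the mTOR and S6 kinase pathway, 5 were higher for the lesion (median -0.026), 9 for TTX (0.00088), 12 for high clozapine (0.0094) and 8 for high haloperidol (-0.014). Akt1s1, an inhibitor within mTOR complex 1, had the smallest p for the lesion, at -0.12 ± 0.06 (SE). Of the remaining marker lists for the lesion, 3 of 8 endothelial and mural (median -0.087), 3 of 5 meningeal and choroid plexus (0.018), 1 of 2 blood (-0.050) and 4 of 5 striatal neuron markers (0.19) were higher.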

How the data were processed

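The deposited table gave 1 linear intensity per probe set and array, made by the authors with software not given in the sources used here. Each array had been scaled by the authors, to means between 2500.6 and 2500.8 once 2% at either end was trimmed. Quantile normalisation within an experiment was followed by a floor of 32 (6.04% of values lay below it) and log2. Of 31099 probe sets 57 were controls, and the brightest 60% of the rest were tested with limma 3.58.1 in R 4.3.3 (lmFit, eBayes; Benjamini-Hochberg adjustment over all tested). Lesion and TTX arrays were each fitted by themselves, the 7 neuroleptic groups together, and lesion minus TTX effects jointly. Further fits added blocks of consecutive title numbers, cut for the analysis and not marked in the labels, or the 3′ minus 5′ control difference. The procedure was tested on simulated data. Symbols are those of the platform's annotation table, start sites those of RefSeq's GRCr8. The members and lists were chosen with earlier results of these data known. Members named in a comparison were drawn mainly from those called, the 3 with the smallest p and the largest difference each way. Rpl5, Rpl11, Rpl39, Rplp0, Rps6 and Rpsa could be named in any comparison. From each other list the gene of smallest p could be named. Not every gene that met these rules is named in the text. Alternatives were other scalings, floors and filters, array weights, block and covariate terms, averaged probe sets and arrays left out. The number of arrays limits the precision, and there were no detection calls. Figures were drawn with matplotlib 3.10.9.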

Additional observations from a re-analysis of the deposited data

Results flagged for a closer look

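In the 9 groups of up to 10 arrays, 24 members, the family mean and the 3′ minus 5′ measure were screened, which made 234 combinations. These were the members picked for the text, mostly by small p or large difference, and the other tested members were not screened. Of the combinations, 19 held 1 array farther from the rest than Dixon's critical value at 95%, and chance alone gives about 1 in 20. High haloperidol replicate 8 was the highest array for 10 of them: Rpl11 at 15.78, Rpl14 at 15.07, Rpl18 at 15.22, Rpl24 at 15.24, Rpl27 at 15.66, Rpl4 at 15.75, Rpl6 at 15.85, Rps15 at 15.72, Rpsa at 15.39 (log2 levels) and the family mean at 0.35. In the same group Rps6 had a single low array at 15.57, and at medium haloperidol Rps6 had one at 15.55 and Rps15 one at 15.07, while Rpl21 had a high array at 15.18 at low haloperidol. In clozapine groups single low arrays were seen for Rpl4 at the high dose (15.06) and for Rplp0 (14.66) and Rpsa (14.62) at the low dose. In the lesion experiment's sham group Rpl27 had a high array at 15.29 (replicate 9, one of the arrays of low mean correlation) and Rpl27a a low one at 15.87. The lesion group, of 12 arrays, was too large for this comparison.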

How the results depend on the processing

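No alternative called a member in any of the 13 comparisons of groups. The family's median difference kept within 1 SD of the family mean per array under each alternative in all comparisons but medium clozapine. That one reached 0.134 with each array centred on its median. The SD is wide beside the shifts: high haloperidol fell from 0.043 to 0.0031 and stayed within it. Keeping within 1 SD therefore does not show a steady shift. The lesion median ran from 0.024 (without replicate 7) to 0.076 and high haloperidol from 0.0031 (without replicate 8) to 0.061; the sign changed for TTX (-0.0042 to 0.019), low clozapine (-0.013 to 0.026) and the haloperidol mean (-0.0056 to 0.025). The difference of Rpl39 for the lesion ran from -0.80 to -0.70, with adjusted p from 0.264 to 0.677 in limma. Counts of members called by technical fits moved more. For the TTX blocks, 6 became 25 with median centring (64.1%, against 28.3% of all probe sets), 3 without the filter (7.14%, against 4.33%) and 2 with the 3′ minus 5′ covariate (5.13%, against 5.22%). For the lesion slope, 2 became 11 with values as deposited (28.2%, against 1.91%). The 2 became 0 without the filter, with array weights, without the arrays of low mean correlation or without replicate 7. The shares of all probe sets in the settings that gave 0 are not given here. For the neuroleptic slope, 9 became 4 with values as deposited (10.3%, against 27.4%), 17 with median centring (43.6%, against 36.1%), 19 with array weights (48.7%, against 36.9%) and 4 with the block as a term (10.3%, against 5.95%). The cause was not tested. The settings that leave out replicate 7 or replicate 8, and the comparisons of high with low dose, were chosen after seeing the data.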
